A study of Mus musculus with 8 samples.

Results

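The expression of 9 genes of the hypoxia-inducible factor (HIF) response was followed through single mammary epithelial cells of the adult mouse. These were Hif1a, Egln1, Egln3, Vegfa, Adm, Angptl4, Ndrg1, Bnip3 and Pdk1, chosen by symbol from the 27998 genes of the deposited tables, and each symbol matched 1 gene. All mice were C57BL/6N females, at 4 stages: nulliparous (NP, 8 weeks old), pregnant at gestation day 14.5 (G), nursing at lactation day 6 (L) and post involution (PI), 11 days after natural weaning of the pups. There were 2 mice at each stage and 1 library per mouse, giving 8 libraries, and ages other than that of the NP mice were not given in the sources used here. Glands of every stage were minced, digested with collagenase and hyaluronidase for 3 h at 37 °C and sorted for the epithelial surface protein EpCAM, leaving out cells positive for CD31, CD45 or Ter119. NP1, NP2 and PI2 were in oestrus and PI1 in dioestrus.

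HIF-1 is a transcription factor of 2 subunits, of which the alpha subunit, the product of Hif1a, is made continuously and destroyed when oxygen is plentiful. Prolyl hydroxylases, among them the products of Egln1 and Egln3, use oxygen to mark the alpha subunit, and the marked protein is bound by the von Hippel-Lindau protein and degraded. When oxygen is scarce the protein persists, pairs with ARNT and activates genes for blood vessel growth, anaerobic glycolysis and adaptation of mitochondria, and it also raises Egln3 and, in many cells, Egln1, which closes a feedback loop. The transcript of Hif1a is therefore not a measure of the activity of the protein, and several of the targets also answer to other regulators, as Angptl4 does to the PPAR receptors of lipid metabolism. The mammary gland is known to build a dense capillary bed as its alveoli grow, and loss of Hif1a from its epithelium is known to impair secretory differentiation.

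Transcripts were counted as unique molecular identifiers (UMIs), 1 per captured RNA molecule. Counts were summed over the cells of 1 library and 1 cluster, and levels are given as counts per 1000000 UMIs of the same sum (CPM). Of 25009 cells that passed the authors' filters and carried a cluster, 24699 lay in clusters C1 to C19. The 51 sums of at least 20 cells held 24516 of these and 111570 to 26454518 UMIs each, so 1 UMI was worth up to 8.96 CPM in the smallest sum. Library totals ranged from 13785920 to 35711533 UMIs. No cell barcode was shared by libraries among the passed cells, against 392 barcodes among all 25806. The clusters were drawn by the authors from the same counts, and 13 of the 14 clusters C1 to C14 drew over 90% of their cells from 1 stage, and C12 89.3%, so that a change of stage within a cell class was largely also a change of cluster. C12 held basal cells of both NP and PI mice. The paper names C12 and C13 basal cells and C14, almost all from L mice, myoepithelial cells, and all are called basal here. The classes compared were luminal progenitors (LP, C6 and C7), hormone-sensing progenitors (HSP, C1 and C2), differentiated hormone-sensing cells (HSD, C3 to C5), alveolar progenitors (AVP, C10 and C11), differentiated alveolar cells (AVD, C8 and C9) and basal cells (BAS, C12 to C14). Basal markers (Krt5, Krt14, Acta2, Myh11 and Oxtr) summed to between 7070 and 37531 CPM in C12 to C14, and the 8 milk protein genes to a mean of 432370 CPM in C9 of L mice. Clusters C16 to C19 hold cells that the gate should have removed, with immune (C16 and C17), fibroblast (C18) and endothelial (C19) markers, and are given for reference only.

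The promoters of 7 of the 9 genes were found in the RefSeq table for build GRCm38.p6, as 9 windows of 300 bases from 250 before to 50 after a transcription start. They are shown because HIF binds a short core, and they were searched on both strands for ACGTG and GCGTG, the 2 forms of that core. 7 of the 9 windows held at least 1 match, as did 43.8% of all 32851 promoter windows in the table. The windows of Egln3, Vegfa, Adm and Bnip3 follow, since much of what was measured turns on the first 3 and the window of Bnip3 held the most matches, 5. Each is printed 5′ to 3′ in the direction of the gene, in lower case with the matches in capitals, and a match to the opposite strand reads CACGT or CACGC. Bnip3 and Hif1a each hold CACGTG, which matches ACGTG on both strands and was counted on each.
Egln3, chr12:54203825-54204124, minus strand: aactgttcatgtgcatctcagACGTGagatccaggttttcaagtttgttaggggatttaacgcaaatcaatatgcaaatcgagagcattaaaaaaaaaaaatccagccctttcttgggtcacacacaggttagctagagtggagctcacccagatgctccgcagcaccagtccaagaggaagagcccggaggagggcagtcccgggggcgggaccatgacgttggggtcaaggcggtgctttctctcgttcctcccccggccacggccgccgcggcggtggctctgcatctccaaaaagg
Vegfa, chr17:46025114-46025413, minus strand: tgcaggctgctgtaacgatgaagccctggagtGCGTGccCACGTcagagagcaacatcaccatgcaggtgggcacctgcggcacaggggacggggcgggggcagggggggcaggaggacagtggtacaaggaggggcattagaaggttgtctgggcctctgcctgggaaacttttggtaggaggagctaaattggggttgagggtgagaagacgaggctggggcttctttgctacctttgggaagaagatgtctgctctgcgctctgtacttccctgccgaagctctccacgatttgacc
Vegfa, chr17:46032328-46032627, minus strand: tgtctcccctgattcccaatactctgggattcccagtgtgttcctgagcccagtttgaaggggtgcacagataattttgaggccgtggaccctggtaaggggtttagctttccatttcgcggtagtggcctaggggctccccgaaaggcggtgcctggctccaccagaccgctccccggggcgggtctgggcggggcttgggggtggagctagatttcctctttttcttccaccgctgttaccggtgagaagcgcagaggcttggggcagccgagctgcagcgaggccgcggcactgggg
Adm, chr7:110627407-110627706, plus strand: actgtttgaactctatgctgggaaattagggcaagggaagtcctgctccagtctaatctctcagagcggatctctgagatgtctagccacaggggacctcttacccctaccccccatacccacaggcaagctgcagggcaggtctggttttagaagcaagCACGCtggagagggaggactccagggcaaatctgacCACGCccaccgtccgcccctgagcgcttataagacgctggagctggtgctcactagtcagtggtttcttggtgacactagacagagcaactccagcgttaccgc
Bnip3, chr7:138909457-138909756, minus strand: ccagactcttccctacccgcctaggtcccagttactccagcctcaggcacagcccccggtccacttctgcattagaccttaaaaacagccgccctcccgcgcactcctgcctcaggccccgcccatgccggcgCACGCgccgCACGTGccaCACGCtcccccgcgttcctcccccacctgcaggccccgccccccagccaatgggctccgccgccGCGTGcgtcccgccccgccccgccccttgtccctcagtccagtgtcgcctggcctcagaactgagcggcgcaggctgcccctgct
Egln3 had 1 match, at base 22 of the printed window. Of the 2 Vegfa windows, the one inside the gene held 2 matches, at bases 33 and 40, and the one at its annotated 5′ end held none. Adm held 2, at bases 161 and 197, both GCGTG read on the opposite strand. The unprinted windows of Hif1a, Egln1 and Pdk1 held 3, 2 and 2 matches, and a further window of Pdk1 none. Windows with 2 or more matches made up 20.6% of all promoters. A match is only a run of letters, and no binding was measured in these samples.

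In NP mice Egln3 was high in luminal progenitors (206 and 200 CPM in the 2 mice), intermediate in hormone-sensing progenitors (83.4 and 69.1 CPM) and nearly absent from differentiated hormone-sensing cells (5.25 and 2.27 CPM). In G mice the highest level of the whole series stood in basal cluster C13 (208 and 297 CPM), above alveolar progenitors (111 and 122 CPM) and differentiated alveolar cells (55.2 and 63.0 CPM). It was not seen in 11 of the 51 sums, among them C15 of L mice, the Procr-positive cells with pericyte markers, where 0 UMIs in the deeper library allow up to 4.66 CPM. Egln3 lies at chr12:54178981-54203860 on the minus strand of GRCm38 (ENSMUSG00000035105).

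Hif1a itself (ENSMUSG00000021109, chr12:73901375-73947530, plus strand) ordered the classes in another way. Its level was low in the luminal progenitor and alveolar clusters at every stage and higher in the hormone-sensing and basal clusters. NP luminal progenitors had 77.0 and 79.1 CPM and NP differentiated hormone-sensing cells 339 and 318 CPM, with NP hormone-sensing progenitors (257 and 252 CPM) and NP basal cells (241 and 283 CPM) between them and overlapping each other. In G mice basal cells held 492 and 522 CPM against 61.2 and 58.0 CPM in alveolar progenitors and 60.4 and 65.0 CPM in differentiated alveolar cells, the last pair overlapping. Over all 51 sums Hif1a ran from 33.0 to 601 CPM with a median of 179 CPM. Egln1 (ENSMUSG00000031987, chr8:124908587-124949324, minus strand), which encodes the main oxygen sensor of the pathway, was low throughout, from 0 to 32.2 CPM with a median of 7.40 CPM. Its highest values were in endothelial cluster C19 of G mice (31.2 and 32.2 CPM).

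The secreted products followed 3 different patterns. Vegfa (ENSMUSG00000023951, chr17:46016993-46032369, minus strand), the growth factor that drives sprouting of endothelial cells, was highest in basal cluster C12 of PI mice (592 and 405 CPM, from few cells) and in basal C13 of G mice (276 and 379 CPM). Its median over the sums was 60.0 CPM, and in endothelial C19 it stood at 37.5 and 29.6 CPM in G mice. Adm (ENSMUSG00000030790, chr7:110627661-110629820, plus strand), the vasodilator peptide adrenomedullin, was confined neither to epithelium nor to 1 stage. It reached 256 and 311 CPM in basal C13 of G mice and 248 and 529 CPM in fibroblast cluster C18 of L mice, and did not exceed 42.6 CPM in any luminal sum. Angptl4 (ENSMUSG00000002289, chr17:33773750-33781830, minus strand), an inhibitor of lipoprotein lipase, was highest in endothelial C19 of G mice (1602 and 1271 CPM). Among epithelial sums its upper values were 435 CPM in basal C14 of L mice and 418 CPM in luminal progenitor cluster C7 of PI mice. The 4 adipocyte markers, of which Adipoq and Plin1 are the defining ones, summed to between 0 and 26.7 CPM over the 51 sums and none passed the filter of any comparison.

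Of the intracellular targets, Ndrg1 (ENSMUSG00000005125, chr15:66929318-66969640, minus strand), a growth and stress response gene, was highest in basal C12 of PI mice (583 and 349 CPM) and C19 of G mice (453 and 404 CPM), and low in basal C14 of L mice (50.3 and 56.8 CPM). Bnip3 (ENSMUSG00000078566, chr7:138890836-138909519, minus strand), which encodes a receptor for the removal of mitochondria, was highest in C5, the few differentiated hormone-sensing cells of G mice (73.0 and 54.2 CPM from 9 and 14 UMIs). Pdk1 (ENSMUSG00000006494, chr2:71873224-71903858, plus strand), which encodes a kinase that inhibits pyruvate dehydrogenase, peaked in alveolar progenitors of G mice (35.2 and 33.1 CPM). Differentiated alveolar cells of the same mice followed with 28.7 and 29.1 CPM. The 36 pairs among the 9 genes had Pearson correlations of log2(CPM + 1) from -0.22 to 0.51 with a median of 0.13 over the 51 sums. These sums share libraries and differ in depth.

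**Figure D1:**
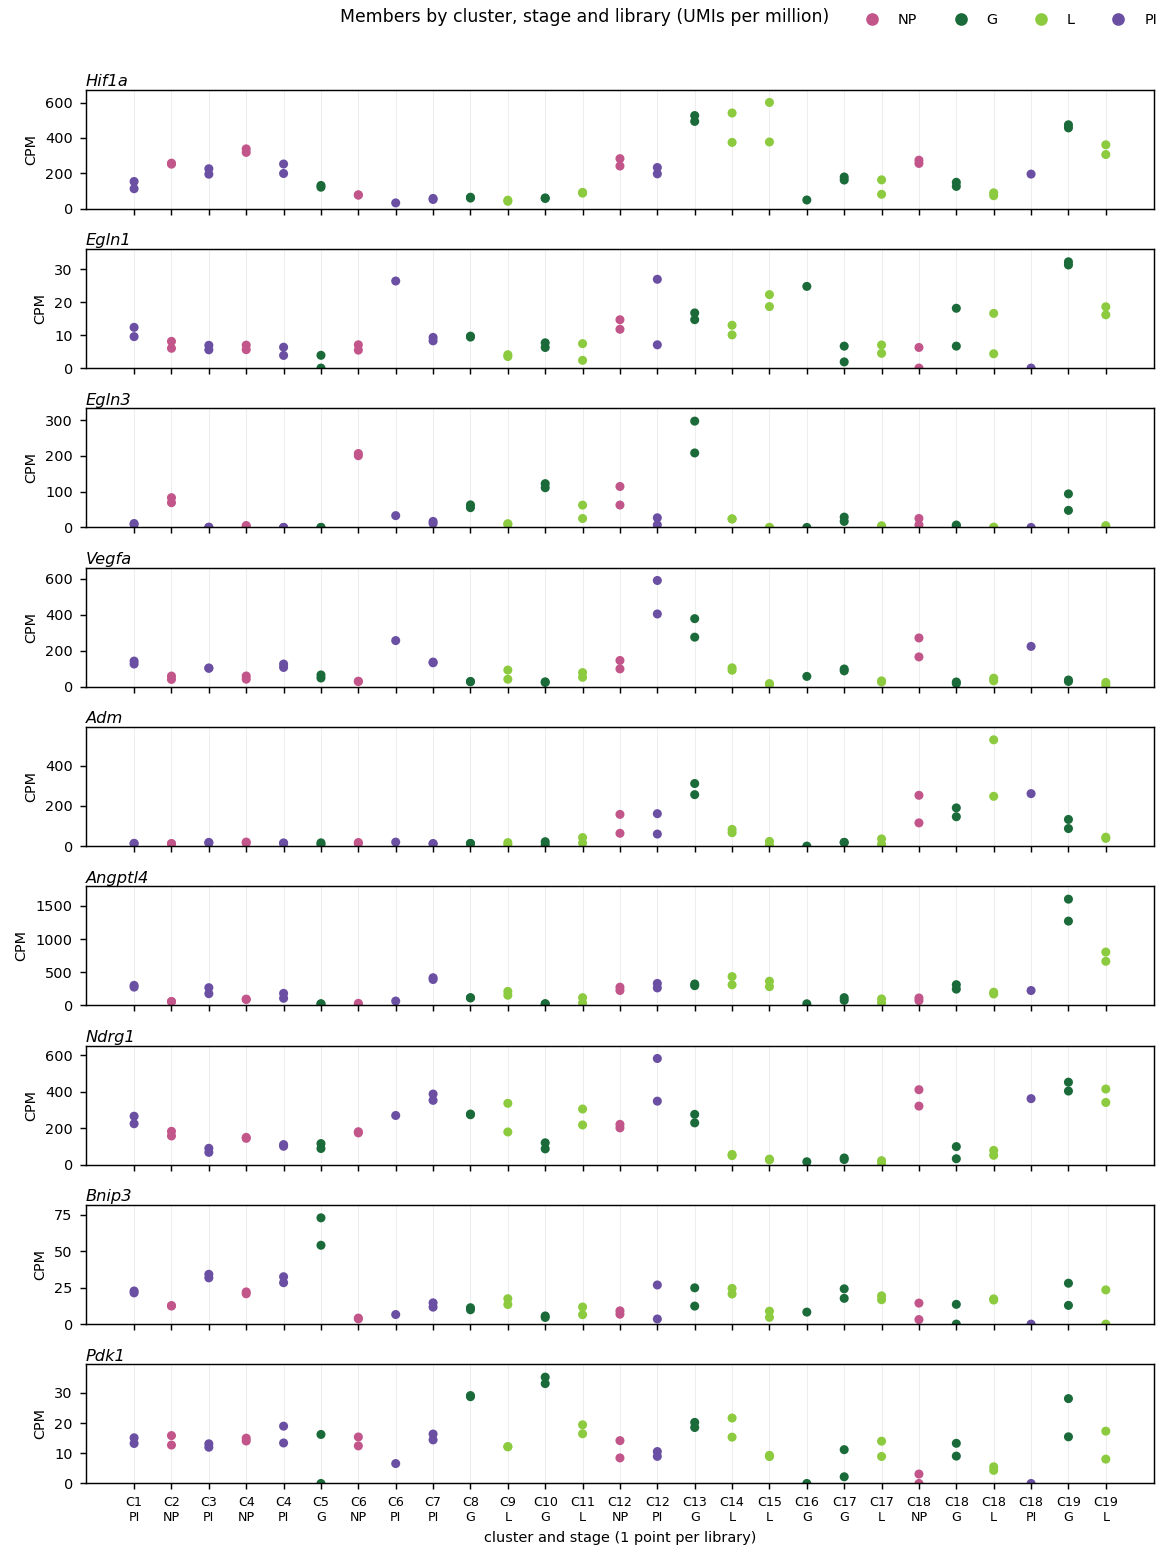
Level of each of the 9 genes in CPM (vertical axis, linear, from 0) in every cluster and stage (horizontal axis), with 1 point per library coloured by stage. Egln3 stands at 206 and 200 CPM in C6 of NP mice and at 208 and 297 CPM in C13 of G mice and near 0 in the differentiated hormone-sensing clusters C3 to C5, and Angptl4 reaches 1602 CPM in C19 of G mice.

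In luminal progenitors, PI mice, 11 days after weaning, were compared with NP mice. The age of PI mice was not given, and PI1 was in dioestrus against oestrus in both NP mice. A past pregnancy and lactation therefore cannot be told apart from age or, in PI1, cycle stage, here or in the other classes. Egln3 fell, Vegfa, Angptl4, Ndrg1 and Bnip3 rose, and Hif1a was slightly lower. Egln3 went from 206 and 200 CPM in NP mice to 11.4 and 17.1 CPM in PI mice, a log2 fold change of -3.75 ± 0.18 (standard error, n = 2 and 2; edgeR quasi-likelihood test, Benjamini-Hochberg adjusted p = 3.59e-07). Angptl4 went from 31.7 and 11.6 CPM to 411 and 389 CPM (log2 fold change 4.23 ± 0.27, adjusted p = 2.64e-06). These were the largest changes of the set in either direction, with wide gaps between the groups, a trait not counted over all genes. Vegfa rose from 30.8 and 29.4 CPM to 136 and 139 CPM, which was 4.83-fold (log2 2.27 ± 0.14, adjusted p = 1.90e-06). Ndrg1 rose from 175 and 181 CPM to 351 and 386 CPM (1.13 ± 0.13, adjusted p = 0.000107), and Bnip3 from 3.62 and 4.14 CPM, 12 and 10 UMIs, to 14.4 and 11.6 CPM (1.83 ± 0.30, adjusted p = 0.00119). Hif1a stood at 77.0 and 79.1 CPM against 52.0 and 58.5 CPM (-0.42 ± 0.14, adjusted p = 0.0441). Egln1, Adm and Pdk1 did not pass the test, and DESeq2 did not call Hif1a (adjusted p = 0.195). The share of all tested genes called in this comparison was 26.9%, against 6 of the 9 genes here. Milk protein genes, which mark alveolar differentiation, also moved, with 7 of 7 tested higher (770 and 1445 CPM in C6 of NP mice, 13656 and 14679 CPM in C7 of PI mice), as did 2 of 3 tested immune markers (11.2 and 15.3 CPM against 34.2 and 39.4 CPM), and the part of either was not tested. The Hif1a call was lost without NP mouse 1, NP mouse 2 or PI mouse 1 (adjusted p = 0.127, 0.196 and 0.158).

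In hormone-sensing progenitors the called genes were Egln3 and Hif1a, lower in PI mice, and Angptl4, Vegfa, Ndrg1 and Bnip3, higher. Egln3 fell from 83.4 and 69.1 CPM to 8.20 and 10.9 CPM (log2 fold change -2.93 ± 0.19, adjusted p = 1.25e-06). Angptl4 rose from 57.9 and 59.0 CPM to 272 and 302 CPM (2.29 ± 0.14, adjusted p = 8.98e-07) and Vegfa from 40.8 and 59.5 CPM to 140 and 126 CPM (1.41 ± 0.18, adjusted p = 0.000317). In each of these 3 genes both PI mice lay outside the range of both NP mice, a trait not counted over all genes. Hif1a fell by 0.91 ± 0.15 on the log2 scale, from 257 and 252 CPM to 116 and 154 CPM (adjusted p = 0.00212). Ndrg1 (0.49 ± 0.14, adjusted p = 0.0368) and Bnip3 (0.80 ± 0.19, adjusted p = 0.0151) rose less, and DESeq2 called neither (adjusted p = 0.0774 and 0.186). Here 16.6% of all tested genes were called, and 6 of the 9. Of 6 tested milk protein genes 6 were also higher, and their part was not tested. Without NP mouse 2 Hif1a, Ndrg1 and Bnip3 were lost (log2 fold changes -0.88, 0.65 and 0.82). The number called over all tested genes fell there too. Ndrg1 was also lost without NP mouse 1 (0.35) or PI mouse 1 (0.41), as was Bnip3 without NP mouse 1 (0.79).

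In differentiated hormone-sensing cells of PI mice Ndrg1 fell where it had risen in both progenitor classes. It went from 150 and 145 CPM to 92.1 and 69.1 CPM (log2 fold change -0.95 ± 0.16, adjusted p = 0.0025). Hif1a fell from 339 and 318 CPM to 196 and 227 CPM (-0.69 ± 0.17, adjusted p = 0.0183), and Egln3, already at 5.25 and 2.27 CPM, to 0.274 and 0.560 CPM from 1 and 9 UMIs (-2.89 ± 0.56, adjusted p = 0.00581). Vegfa rose from 42.5 and 59.9 CPM to 105 and 104 CPM (0.96 ± 0.19, adjusted p = 0.00646) and Angptl4 from 97.7 and 89.7 CPM to 172 and 265 CPM (1.18 ± 0.21, adjusted p = 0.00387). Bnip3 rose 1.48-fold (0.57 ± 0.16, adjusted p = 0.0358) and was not called by DESeq2 (adjusted p = 0.107). The background was 14.3% of tested genes, and 6 of the 9 were called. Of the marker lists, 4 of 4 tested milk protein genes were higher and 3 of 4 tested basal markers lower, and their part was not tested. Cluster C4 holds cells of both stages, so a comparison inside 1 cluster was possible there. In its 40 and 88 PI cells Vegfa stood at 108 and 126 CPM and Hif1a at 199 and 253 CPM, on the same side of the NP values of that cluster (42.2 and 60.0 CPM for Vegfa, 338 and 318 CPM for Hif1a) as in the whole class. Without NP mouse 1 Hif1a, Egln3 and Bnip3 were lost (adjusted p = 0.0714, 0.0578 and 0.251), Bnip3 also without NP mouse 2 (0.10) or PI mouse 2 (0.135), and Hif1a without PI mouse 1 (0.0546).

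Basal cells of PI mice were rare, 28 and 59 cells, and carried the highest Vegfa level of any sum. Vegfa stood at 586 and 416 CPM (67 and 130 UMIs) against 99.4 and 146 CPM in NP mice (log2 fold change 1.97 ± 0.22, adjusted p = 1.39e-06). Ndrg1 was 568 and 339 CPM against 222 and 202 CPM (0.99 ± 0.20, adjusted p = 0.0028), and Egln3 26.2 and 9.60 CPM, from 3 UMIs in each mouse, against 62.5 and 114 CPM (-2.60 ± 0.61, adjusted p = 0.0081). Thus 3 of the 9 genes were called, beside 7.43% of all tested genes. A list of 16 early-response genes known to be induced by tissue dissociation, with Fos, Jun, Egr1 and the Hspa1 genes, moved with the stage, 10 of 16 being higher and 0 lower by edgeR, and its summed level in C12 was 5651 and 4946 CPM in NP mice and 7780 and 9793 CPM in PI mice. Immune markers summed to 92 and 124 CPM in C12 of NP mice and to 851 and 10.6 CPM in PI mice, and the part of either list was not tested. Egln3 was lost without NP mouse 2 or PI mouse 2 (adjusted p = 0.0681 and 0.161) and Ndrg1 without NP mouse 1 or NP mouse 2 (0.0885 and 0.133). Without the filter on low counts none of the 3 was called (adjusted p = 0.145 for Vegfa, 0.285 for Ndrg1 and 0.373 for Egln3).

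**Figure D2:**
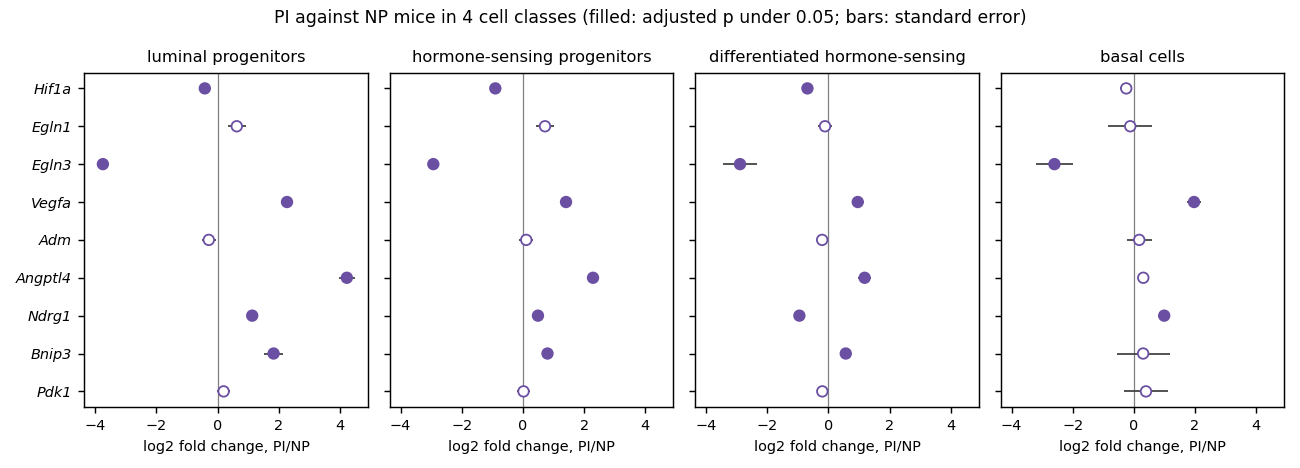
Log2 fold change of PI over NP mice (horizontal axis) for the 9 genes in 4 cell classes, with the standard error as bars and filled points for adjusted p under 0.05. Egln3 lies left of 0 and Vegfa right of 0 in every panel, and Ndrg1 lies at 1.13 in luminal progenitors and at -0.95 in differentiated hormone-sensing cells.

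The size of the PI change differed between classes. The change in differentiated hormone-sensing cells minus that in luminal progenitors was -3.14 ± 0.32 on the log2 scale for Angptl4 (edgeR interaction term, adjusted p = 4.91e-06), -2.09 ± 0.18 for Ndrg1 (adjusted p = 7.95e-07), -1.27 ± 0.21 for Vegfa (adjusted p = 0.000454) and -1.24 ± 0.35 for Bnip3 (adjusted p = 0.0245). All 4 called genes were thus less raised, or lowered, in the differentiated cells, and Egln3 did not pass this test. By DESeq2 the Bnip3 difference was not called (adjusted p = 0.172). Such interactions were called for 13% of all tested genes, and 6.71% had this sign. Between basal cells and luminal progenitors only Angptl4 differed among the 9 genes, by -4.04 ± 0.23 (adjusted p = 1.59e-45), beside 7.68% of all tested genes. Angptl4 in basal cells stood at 275 and 230 CPM in NP mice and 324 and 310 CPM in PI mice. The fit drew 356 of its degrees of freedom from the spread shared over all genes and 2 from these mice. The Bnip3 difference was lost without NP mouse 1 (-1.24). Without PI mouse 1 more of the 9 were called between basal cells and luminal progenitors, and the number called over all tested genes changed too.

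Nearly the whole set was higher in basal cells of gestation. Compared with NP mice, 8 of the 9 genes were higher in G mice and none was lower, while of all tested genes 24.3% were higher and 46.1% were called in either direction. Vegfa rose from 99.4 and 146 CPM to 276 and 381 CPM (log2 fold change 1.52 ± 0.18, adjusted p = 7.13e-06). Hif1a rose 2.06-fold, from 241 and 283 CPM to 492 and 522 CPM (1.04 ± 0.13, adjusted p = 1.14e-05). Egln3 rose from 62.5 and 114 CPM to 208 and 294 CPM (1.63 ± 0.22, adjusted p = 2.26e-05), the only rise of this gene among the 9 comparisons of stages. Adm rose from 63.7 and 157 CPM to 255 and 308 CPM (1.48 ± 0.27, adjusted p = 0.000297), Bnip3 from 6.82 and 9.10 CPM to 12.3 and 24.7 CPM (1.37 ± 0.33, adjusted p = 0.00326) and Pdk1 from 8.46 and 14.1 CPM to 20.1 and 18.4 CPM (0.94 ± 0.27, adjusted p = 0.00931). The 2 groups did not overlap for any of these called genes, and the share of all genes without overlap was not counted. Angptl4 (0.37 ± 0.13, adjusted p = 0.0235) and Ndrg1 (0.35 ± 0.13, adjusted p = 0.0362) rose least. DESeq2 called 4 of the genes, beside 3098 of 11086 tested, without Adm, Angptl4, Ndrg1 and Pdk1 (adjusted p = 0.0838, 0.0612, 0.0991 and 0.0944).

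Leaving out 1 library of the basal comparison of G with NP mice ended some of these calls. Hif1a, Egln3, Vegfa and Adm were called in every case. Pdk1 was lost without NP mouse 1 (adjusted p = 0.276), Bnip3 without G mouse 2 (0.0614), and Angptl4 without NP mouse 2 or G mouse 1 (0.221 and 0.0850). Ndrg1 was lost without NP mouse 1, NP mouse 2 or G mouse 2 (0.108, 0.181 and 0.231). The early-response genes of dissociation also moved, 12 of 16 higher and 1 lower in G mice. Their summed level in basal cells was 4946 to 5651 CPM in NP mice and 6577 to 10147 CPM in G mice. Fibroblast markers were higher for 5 of 6 genes (177 and 262 CPM in NP mice, 885 and 680 CPM in G mice), immune markers for 3 of 4, and luminal keratins lower for 3 of 3 (4289 and 2809 CPM against 855 and 852 CPM). The part of these lists in the results was not tested.

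From gestation to lactation Egln3, Vegfa, Adm and Ndrg1 fell in basal cells, while Hif1a and Angptl4 did not pass the test. Egln3 went from 208 and 294 CPM to 23.3 and 24.1 CPM, a 9.81-fold fall (log2 -3.29 ± 0.18, adjusted p = 7.97e-06). Ndrg1 went from 231 and 277 CPM to 50.3 and 56.9 CPM (-2.13 ± 0.14, adjusted p = 1.77e-05). Adm fell from 255 and 308 CPM to 83.2 and 66.5 CPM (-1.80 ± 0.15, adjusted p = 5.32e-05) and Vegfa from 276 and 381 CPM to 92.0 and 106 CPM (-1.62 ± 0.17, adjusted p = 0.000146). The L values of both mice lay far below those of both G mice in each, a trait not counted over all genes. Hif1a was 375 and 541 CPM in L mice, on either side of the G values, and Angptl4 311 and 435 CPM. Of all tested genes 24% were lower and 48.3% were called in either direction, and 4 of the 9 were called, all lower. Without L mouse 1 more of the 9 were called, and the number called over all tested genes changed too. In L mice 15 of the 16 dissociation genes were higher, their summed level in C14 being 32246 and 38700 CPM, and 5 of 5 basal markers and 2 of 3 luminal keratins were higher too. Their part in the falls was not tested. These libraries hold 4639 and 3105 basal cells, the most of any class and stage. Nearly all were myoepithelial cells of C14, set against basal cells of C13 in G mice, so stage and cluster cannot be told apart.

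**Figure D3:**
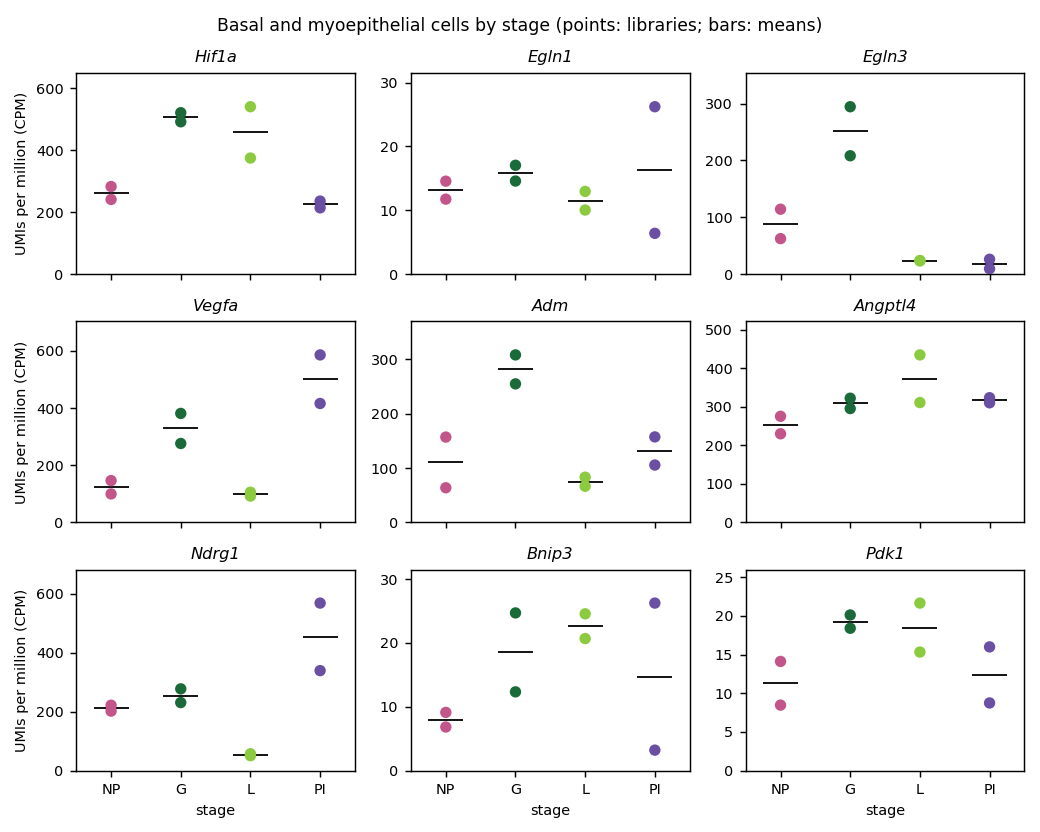
Level in CPM (vertical axes, from 0, one scale per gene) of the 9 genes in basal cells at the 4 stages, with 1 point per library and a bar at the mean of 2. Vegfa stands at 99.4 and 146 CPM in NP mice, 276 and 381 CPM in G mice, 92.0 and 106 CPM in L mice and 586 and 416 CPM in PI mice, while Hif1a was not lower in L than in G mice beyond its spread.

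In the alveolar lineage lactation went with higher Vegfa, Angptl4 and Ndrg1 and lower Egln3. In alveolar progenitors Vegfa rose from 23.7 and 27.5 CPM in G mice to 53.2 and 77.1 CPM in L mice (log2 fold change 1.60 ± 0.25, adjusted p = 0.00156). Ndrg1 rose from 87.2 and 120 CPM to 211 and 304 CPM (1.58 ± 0.22, adjusted p = 0.000713), and Hif1a from 61.2 and 58.0 CPM to 90.4 and 87.4 CPM (0.86 ± 0.17, adjusted p = 0.00568). None of the 3 overlapped between the stages, and the share of all genes without overlap was not counted. By DESeq2 Hif1a was not called (adjusted p = 0.0577). Egln3 fell from 111 and 122 CPM to 23.9 and 63.3 CPM (-1.19 ± 0.32, adjusted p = 0.0214). Angptl4 went from 26.0 and 23.1 CPM to 113 and 35.7 CPM (1.93 ± 0.45, adjusted p = 0.0113), with the higher value in L mouse 1. Of the 7 genes tested 5 were called, beside 28% of all tested genes, and Egln1 and Bnip3 were too low to test. Fold changes by TMM scaling stood 0.28 above those by total UMIs on the log2 scale here. Without L mouse 1 Egln3 and Angptl4 were lost (adjusted p = 0.0569 and 0.0769). Basal markers in alveolar progenitors summed to 169 and 236 CPM in G mice and to 3866 and 5377 CPM in L mice, with 5 of 5 higher, and dissociation genes to 14234 and 15817 CPM against 24672 and 31250 CPM, with 14 of 16 higher. Immune markers were higher for 2 of 3 tested genes and fibroblast markers for 2 of 2, and the part of these lists was not tested.

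Differentiated alveolar cells of L mice were few, 43 and 48 cells, and milk transcripts made up a mean of 432370 CPM in C9. CPM values of other genes are lowered by that share, and the fitted fold changes, which use TMM scaling (a trimmed mean of ratios), stood 0.90 above those scaled by total UMIs on the log2 scale. Vegfa was 29.5 and 27.8 CPM in G mice and 41.6 and 92.6 CPM in L mice (log2 fold change 2.18 ± 0.28, adjusted p = 0.000183). Angptl4 was 115 and 115 CPM and then 152 and 211 CPM (1.58 ± 0.19, adjusted p = 0.000109), and Egln3 55.2 and 63.0 CPM and then 12.1 and 8.05 CPM (-1.68 ± 0.32, adjusted p = 0.00281). For these 3 genes the groups did not overlap in CPM, a trait not counted over all genes. The direction was the same under both scalings. Ndrg1 passed the test (0.83 ± 0.25, adjusted p = 0.0366), but by total UMIs its fold change was -0.08, its values being 278 and 274 CPM against 180 and 337 CPM. Bnip3 rose by TMM scaling (1.49 ± 0.38, adjusted p = 0.0166) and stood at 0.59 by total UMIs (adjusted p = 0.189). In all 5 of the 9 were called, beside 18.7% of all tested genes. By DESeq2 Ndrg1 was not called (adjusted p = 0.13). Without G mouse 2 Egln3, Ndrg1 and Bnip3 were lost (adjusted p = 0.0667, 0.176 and 0.111), Bnip3 also without G mouse 1 (0.0501) or L mouse 1 (0.101), and Ndrg1 without L mouse 2 (0.530). Basal markers summed to 130 and 138 CPM in G mice and 976 and 2252 CPM in L mice, 5 of 5 being higher. Dissociation genes were higher for 13 of 16 (11168 and 8792 CPM against 11568 and 12533 CPM) and immune markers for 3 of 5, and the part of these lists was not tested.

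**Figure D4:**
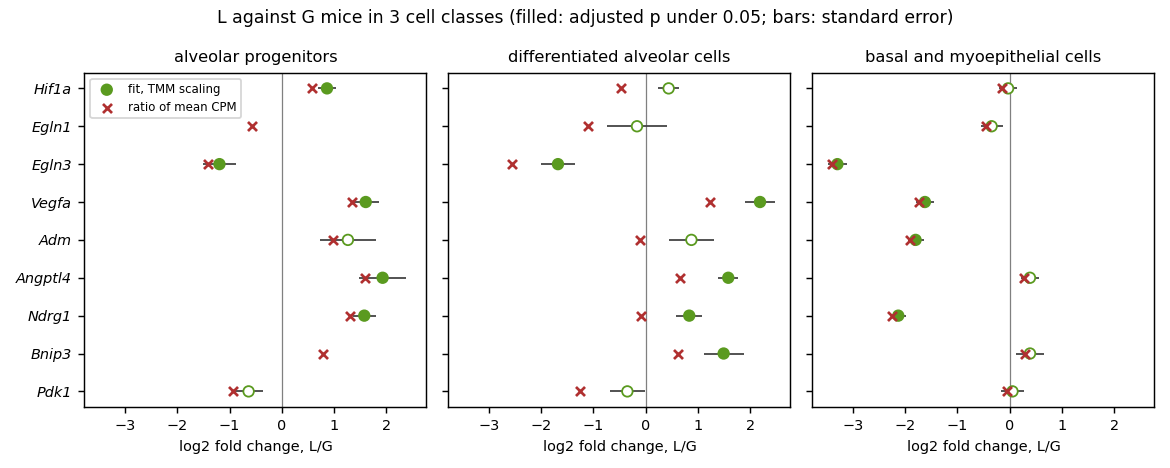
Log2 fold change of L over G mice (horizontal axis) for the 9 genes in 3 cell classes, with circles for the fit (filled for adjusted p under 0.05, bars for the standard error) and crosses for the ratio of mean CPM. Vegfa lies at -1.62 in basal cells and at 1.60 in alveolar progenitors, and in differentiated alveolar cells the crosses lie left of the circles.

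The difference between lineages in the lactation change was itself tested. The change in basal cells minus that in alveolar progenitors was -3.75 ± 0.19 for Ndrg1 (edgeR interaction term, adjusted p = 2.64e-10), -3.27 ± 0.24 for Vegfa (adjusted p = 2.56e-08) and -3.10 ± 0.41 for Adm (adjusted p = 2.94e-05). Vegfa and Ndrg1 fell in basal cells and rose in alveolar progenitors. Egln3 fell in both, by more in basal cells (difference -2.10 ± 0.31, adjusted p = 8.54e-05). Angptl4 (-1.58 ± 0.45, adjusted p = 0.0179) and Hif1a (-0.97 ± 0.23, adjusted p = 0.00475) also differed by edgeR, while DESeq2 did not call Angptl4 (adjusted p = 0.494). Thus 6 of the 9 were called, all with a negative sign, beside 20.1% of all tested genes in either direction and 13.6% with that sign, and both Angptl4 and Hif1a were lost without L mouse 1 (adjusted p = 0.865 and 0.146). Between differentiated alveolar cells and alveolar progenitors 0 of the 9 differed by edgeR in their lactation change, beside 3.87% of all tested genes. At an edgeR p under 0.05 without adjustment there were 1325 genes, Vegfa and Ndrg1 among them, and DESeq2 called 188 genes, none of the 9 among them. Without L mouse 1 or L mouse 2 edgeR did call some of the 9, and more of all tested genes as well.

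In the few differentiated hormone-sensing cells of G mice, 20 and 41 cells, Hif1a and Angptl4 were lower and Bnip3 higher than in NP mice. Hif1a was 122 and 132 CPM against 339 and 318 CPM (log2 fold change -1.60 ± 0.24, adjusted p = 1.61e-09). Angptl4 was 24.3 and 23.2 CPM, from 3 and 6 UMIs, against 97.7 and 89.7 CPM (-2.23 ± 0.40, adjusted p = 7.55e-07). Both lay well under the NP range, a trait not counted over all genes. The p-values of this fit rest only on the spread shared over all genes, not on that of each gene between these mice. Bnip3 was 73.0 and 54.2 CPM against 20.9 and 22.2 CPM (1.25 ± 0.37, adjusted p = 0.00727), and Ndrg1 89.3 and 116 CPM against 150 and 145 CPM (-0.71 ± 0.26, adjusted p = 0.0378). Egln3 had 0 UMIs in either G mouse, which allows up to 7.86 CPM over both, more than the NP mean of 3.76 CPM, so no fold is given. The median log2 fold change of all tested genes was -0.20 here. By DESeq2 Ndrg1 was not called (adjusted p = 0.0648). The background was 18.6% of tested genes, with 4 of the 9 called. Fewer of the 9 were called when NP mouse 1, NP mouse 2 or G mouse 2 was left out, and the number called over all tested genes changed too. Luminal keratins were lower for 3 of 3 genes (18623 and 14445 CPM in C4 of NP mice, 7749 and 7830 CPM in C5 of G mice) and milk protein genes higher for 5 of 5 (14.6 and 11.9 CPM against 1842 and 991 CPM), and their part was not tested. Bnip3 was lost without any 1 library (adjusted p = 0.0789 to 0.113), as was Ndrg1 (0.0645 to 0.204).

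Classes were also compared within mice of 1 stage, with the mouse as a term of the model. In NP mice 5 of the 9 genes differed between differentiated hormone-sensing cells and luminal progenitors, beside 61% of all tested genes, with 4 higher in the hormone-sensing cells. Egln3 was 53.3-fold lower there (log2 fold change -5.74 ± 0.15), Hif1a 4.37-fold higher (2.13 ± 0.13), Angptl4 4.37-fold higher (2.13 ± 0.15), Bnip3 5.76-fold higher (2.53 ± 0.27) and Vegfa 1.72-fold higher (0.78 ± 0.14). In PI mice 7 differed, beside 62.8% of all tested genes, and Vegfa (-0.53 ± 0.13, adjusted p = 0.0031) and Angptl4 (-1.03 ± 0.18, adjusted p = 0.000344) now had the opposite sign, being lower in the hormone-sensing cells. Ndrg1 was 5.10-fold lower (-2.35 ± 0.15) and Egln1 1.65-fold lower (-0.72 ± 0.24, adjusted p = 0.0205), the latter not called by DESeq2 (adjusted p = 0.312). Egln3 (-5.04 ± 0.34) and Hif1a (1.80 ± 0.13) kept their sign. These within-mouse fits rest on 1 residual degree of freedom and on the spread shared over all genes.

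Basal cells were set against the luminal progenitor of the same mice at 3 stages. In NP mice 6 of the 9 differed, beside 54.5% of all tested genes. Angptl4 (log2 fold change 3.37 ± 0.14), Adm (2.59 ± 0.16), Vegfa (1.85 ± 0.14), Hif1a (1.61 ± 0.11) and Egln1 (0.95 ± 0.31) were higher in basal cells and Egln3 lower (-1.41 ± 0.11). In G mice all 9 differed from alveolar progenitors by edgeR, beside 61.8% of all tested genes. Adm was 20.3-fold, Vegfa 13.7-fold, Angptl4 13.4-fold and Hif1a 9.09-fold higher in basal cells. Egln3 was now also higher there (1.19 ± 0.13), and only Pdk1 was lower (-0.73 ± 0.22, adjusted p = 0.00157). In L mice 8 differed, beside 45.6% of all tested genes, and 2 of the signs had turned. Egln3 (-0.87 ± 0.24, adjusted p = 0.00182) and Ndrg1 (-2.32 ± 0.15, adjusted p = 2.33e-20) were lower in basal cells, and the excess of Vegfa had shrunk to 1.45-fold (0.54 ± 0.17, adjusted p = 0.00845). DESeq2 called 4 of the 9 in L mice, without Egln1, Egln3, Vegfa and Bnip3, beside 3133 of 12561 tested genes. It did not call Egln1 or Pdk1 in G mice (adjusted p = 0.182 and 0.282), nor Egln1 in NP mice (0.416). These edgeR fits also rest on 1 residual degree of freedom and on the spread shared over all genes.

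Differentiated alveolar cells were compared with alveolar progenitors of the same mice. In G mice 4 of the 9 were called by edgeR, beside 28.2% of all tested genes, and DESeq2 did not call Bnip3 (adjusted p = 0.283). Angptl4 was 5.10-fold higher in the differentiated cells (log2 fold change 2.35 ± 0.15), Ndrg1 2.87-fold higher (1.52 ± 0.10) and Bnip3 2.21-fold higher (1.14 ± 0.35), and Egln3 was lower (-0.86 ± 0.11). In L mice 5 of the 8 tested genes were called, beside 14.6% of all tested genes. Angptl4 was again higher (2.27 ± 0.26, adjusted p = 2.80e-16), with 152 and 211 CPM against 113 and 35.7 CPM, and Egln3 lower (-1.22 ± 0.45, adjusted p = 0.0492). In the fits of both stages the standard errors and p-values rest only on the spread shared over all genes. They do not hold the spread of each gene between these mice, which was wide for Angptl4 in alveolar progenitors of L mice. Vegfa (0.90 ± 0.27, adjusted p = 0.0109), Ndrg1 (0.86 ± 0.25, adjusted p = 0.00657) and Bnip3 (1.76 ± 0.56, adjusted p = 0.017) were called by TMM scaling, which stood 0.89 above scaling by total UMIs on the log2 scale. By total UMIs they stood at 0.00, -0.03 and 0.88 (adjusted p = 0.990, 0.913 and 0.171), and DESeq2 called none of the 5.

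Other genes of the pathway were counted from lists drawn up with earlier results of these data known. The HIF machinery list held 14 genes, with the alternative alpha subunit Epas1, the partner Arnt, the Vhl ubiquitin ligase and the coactivators. In luminal progenitors of PI mice 0 of its 12 tested genes were called by edgeR, with a median log2 fold change of 0.06 against -0.02 over all genes. In basal cells of L mice, 3 of 13 were higher and 3 lower than in G mice, a share near the 48.3% of all genes. Epas1, the HIF-2 alpha subunit, rose there by 2.26 ± 0.16 (adjusted p = 1.98e-05) and Cited2, which competes with HIF for its coactivator, by 2.32 ± 0.24 (adjusted p = 0.000151), while Hif1a did not pass. Epas1 also rose in alveolar progenitors of L mice (2.48 ± 0.35, adjusted p = 0.000862) and in differentiated alveolar cells (1.97 ± 0.36, adjusted p = 0.00232). Of the list 3 of 12 were higher and 3 lower in the former, beside 28% of all genes called. In the latter 3 of 12 were higher and 1 lower, beside 18.7%.

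Glycolysis, which HIF-1 is known to raise, was followed in 21 genes from glucose transporters to lactate dehydrogenase. In alveolar progenitors 11 of 15 tested genes were higher in L than in G mice and 0 lower, beside 28% of all genes called in either direction, with a median log2 fold change of 1.15 against -0.03 over all genes. Aldoa rose by 2.88 ± 0.19 (adjusted p = 7.66e-06), Ldha by 2.24 ± 0.17 (adjusted p = 1.91e-05) and Pkm by 2.06 ± 0.20 (adjusted p = 9.01e-05). The summed level of the list was 1953 and 2144 CPM in alveolar progenitors of G mice and 4438 and 5335 CPM in L mice, the highest of the 51 sums. In basal cells of G mice 3 of 20 were higher and 5 lower than in NP mice, beside 46.1% of all genes called. Their median log2 fold change was 0.011 against 0.009 over all genes. From G to L mice 6 of 20 were higher and 2 lower in basal cells, a smaller share than the 48.3% of all genes called there. The 2 lower were the glucose transporter gene Slc2a1 (-1.43 ± 0.17, adjusted p = 0.000269) and Ldha (-1.17 ± 0.12, adjusted p = 0.000119). In luminal progenitors of PI mice 7 of 17 were higher and 2 lower, beside 26.9% of all genes called. Aldoc rose by 1.70 ± 0.16 (adjusted p = 3.64e-05) and the hexokinase Hk2 went from a mean of 32.5 to 87.0 CPM (adjusted p = 0.000941), and Pgk1 fell by 1.43 (adjusted p = 0.0019).

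A list of 30 further hypoxia-induced genes moved in both directions. In luminal progenitors of PI mice 7 of 28 were higher and 5 lower, beside 26.9% of all genes called, with a median log2 fold change of -0.05. Hmox1, a haem-degrading enzyme, rose by 2.26 ± 0.26 (adjusted p = 0.00012), and Edn1, the vasoconstrictor endothelin 1, fell by 2.31 (adjusted p = 1.34e-05). Edn1 fell in both hormone-sensing classes as well, with log2 fold changes of -2.30 in progenitors (adjusted p = 8.02e-06) and -2.36 in differentiated cells (adjusted p = 0.00115). Of the list 4 of 27 were higher and 4 lower in these progenitors, beside 16.6% of all genes called. In the differentiated cells 5 of 25 were higher and 2 lower, beside 14.3%. In basal cells of G mice 12 of 28 were higher than in NP mice and 5 lower, and from G to L mice 5 of 30 were higher and 12 lower, where 46.1% and 48.3% of all genes were called. In alveolar progenitors 7 of 18 were higher in L mice and 0 lower, beside 28% of all genes called, among them Ddit4, a stress-induced inhibitor of growth signalling (2.09 ± 0.19, adjusted p = 5.89e-05). Receptors for the Vegfa and Adm peptides (8 genes) summed to 2104 to 2868 CPM in endothelial C19 and to at most 228 CPM in C1 to C14.

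**Figure D5:**
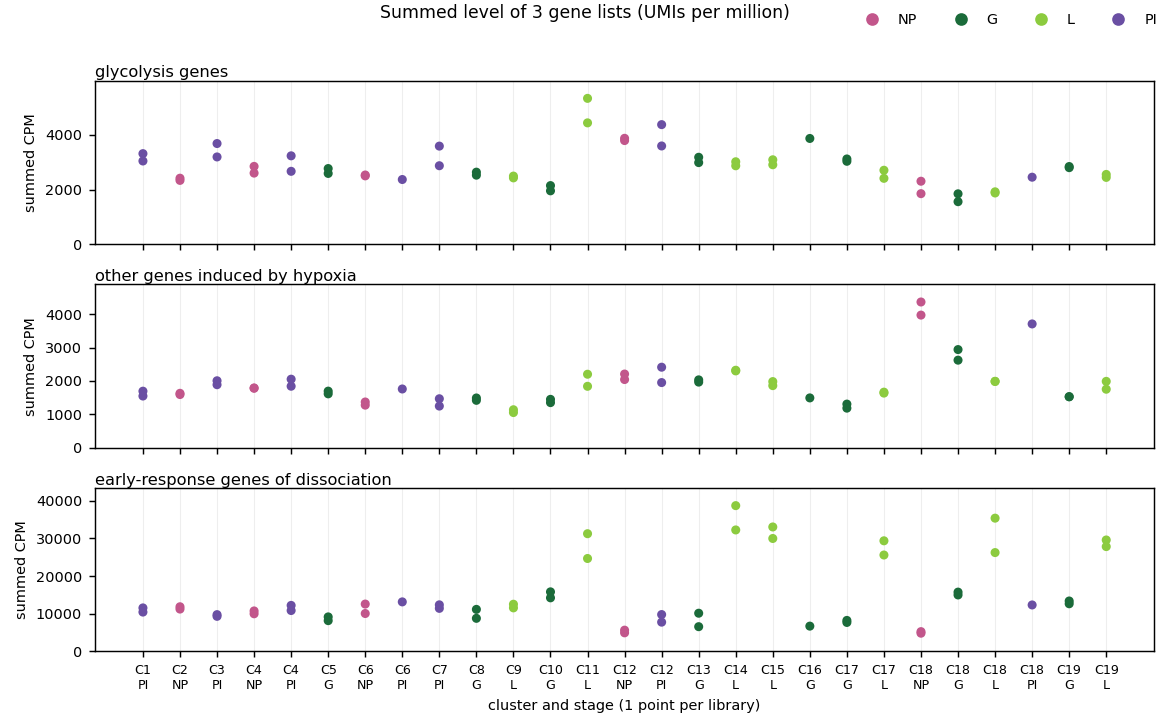
Summed level in CPM (vertical axes, from 0) of 21 glycolysis genes, 30 other hypoxia-induced genes and 16 dissociation-response genes in every cluster and stage (horizontal axis), with 1 point per library coloured by stage. The glycolysis sum is highest in C11 of L mice (4438 and 5335 CPM), and the dissociation sum is at or above 24672 CPM in every L sum except those of C9.

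The genes whose pattern over the 51 sums was nearest to each of the 9 were found among 5954 genes with a mean of at least 20 CPM, by Pearson correlation of log2(CPM + 1). For Hif1a these were Arid5b (r = 0.862), Utrn (0.789) and B230219D22Rik (0.783). Egln3 had Fbxw7 (0.755), Cdc42ep3 (0.754) and Flrt3 (0.743), and Egln1 had Hspa2 (0.736), Nrbp1 (0.735) and Ppp2r4 (0.681). Vegfa was nearest to Map3k2 (0.720), Neat1 (0.718) and Pmepa1 (0.704). Adm was nearest to Aebp1 (0.863), Pcsk5 (0.841) and Cxcl12 (0.835). Angptl4 had Plpp1 (0.708), Adgrf5 (0.685) and Adamts9 (0.668), Ndrg1 had Mpzl1 (0.712), Slc39a14 (0.689) and Uaca (0.688), Bnip3 had Lman2l (0.639), Kcnh1 (0.606) and Sc5d (0.572), and Pdk1 had Kif1c (0.734), Cx3cl1 (0.696) and Rassf3 (0.671). No other gene of the set appeared among these, and the sums share libraries and differ in depth.

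Over the 9 comparisons of stages, Ndrg1 was called in all 9 (6 higher and 3 lower) and Egln3 in 8 (1 higher and 7 lower). In these 9 comparisons 7.43% (basal cells, PI against NP mice) to 48.3% (basal cells, L against G mice) of all tested genes were called. How many other genes were called as often was not counted. Vegfa was called in 8 (7 higher and 1 lower), Angptl4 in 7 (6 higher and 1 lower), Hif1a in 6 (2 higher and 4 lower) and Bnip3 in 6, all higher. Adm was called in 2, 1 in each direction and both in basal cells, and Pdk1 in 1. Egln1 was called in none by edgeR, although without adjustment its p was under 0.05 in hormone-sensing progenitors of PI mice, and DESeq2 called it in none. Several of these comparisons share libraries, so they are not independent of each other.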

How the data were processed

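Droplet 3′ single-cell libraries (10x Chromium v2) were made from EpCAM-sorted mammary cells of 8 mice, 1 library per mouse, all stages processed together. The authors deposited raw UMI counts per gene and cell, made with Cell Ranger (STAR, mm10), and a table of cells with their filters and clusters. These deposited counts carry no normalization.

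Counts of cells that passed the authors' filters were summed per library and cluster, or per library and class. CPM is the share of the sum's UMIs times 1000000, and correlations used log2(CPM + 1). Comparisons used edgeR 4.0.16 in R 4.3.3 (limma 3.58.1) with TMM scaling, filterByExpr (minimum count 10, minimum total 15), glmQLFit and glmQLFTest, two-sided, with Benjamini-Hochberg adjustment over all tested genes and a threshold of 0.05. A gene was called, and said to rise or fall, when it passed. Only the groups compared entered each fit, and within-mouse comparisons had the mouse as a term. Standard errors are the log2 fold change divided by the square root of F. An exact permutation test of 2 against 2 mice cannot go below p = 0.333. Groups of 2 mice that do not overlap are therefore no support beyond the test. Limits for 0 UMIs use 3 counts and, like the CPM of small sums, cover counting error only.

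The 9 genes are those named, in every comparison. For other lists, counts are given with examples from at most 4 genes per list and comparison with the largest change at 20 CPM or more in 1 group. Members, lists and tests were chosen with earlier results of these data known. Gene models are from GENCODE vM21 (GRCm38) and promoter windows from RefSeq (GRCm38.p6). Doublet cluster C20 and the 44 sums under 20 cells were left out. Alternatives were DESeq2 1.42.0, other filters, scalings and thresholds, a replicate block and leaving out each library. The statistics were tested on simulated counts. Replicate numbers were checked for pairing by the correlation of same-numbered libraries' deviations from their stage means over 5655 genes, which lay between -0.060 and 0.050.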

Additional observations from a re-analysis of the deposited data

Results flagged for a closer look

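The following results were singled out because the same contrast differed between 2 cell classes by an interaction term of the edgeR quasi-likelihood test, with adjustment over all tested genes. Each class contributed 2 libraries per stage.

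For the change from NP to PI mice, differentiated hormone-sensing cells minus luminal progenitors gave -1.27 ± 0.21 for Vegfa, -3.14 ± 0.32 for Angptl4, -2.09 ± 0.18 for Ndrg1 and -1.24 ± 0.35 for Bnip3 on the log2 scale. Ndrg1 was lower in PI mice in the first class and higher in the second, and the other 3 genes were higher in both. Basal cells minus luminal progenitors gave -4.04 ± 0.23 for Angptl4, where the PI basal sums held 28 and 59 cells.

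For the change from G to L mice, basal cells minus alveolar progenitors gave -0.97 ± 0.23 for Hif1a, -2.10 ± 0.31 for Egln3, -3.27 ± 0.24 for Vegfa, -3.10 ± 0.41 for Adm, -1.58 ± 0.45 for Angptl4 and -3.75 ± 0.19 for Ndrg1. Vegfa and Ndrg1 fell in basal cells and rose in alveolar progenitors. Angptl4 (-0.12, adjusted p = 0.865) and Hif1a (-0.53, adjusted p = 0.146) were not called without L mouse 1.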

How the results depend on the processing

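Calls for single genes kept their direction and side of the threshold in 102 of 102 cases with milk protein genes removed, 47 of 47 with only the main cluster of each class, 93 of 96 with the filter of the study's methods, 95 of 102 without a filter on low counts, 75 of 102 with DESeq2, 94 of 102 with total UMI scaling (added after seeing the data), 42 of 102 with a fold threshold (glmTreat) and 187 of 232 with 1 library left out. Under total UMI scaling Ndrg1 reversed in differentiated alveolar cells, to a log2 fold change of -0.083 for L against G mice and of -0.031 against alveolar progenitors of L mice. With glmTreat the number of the 9 genes called was 3 in LP, 2 in HSP, 0 in HSD and 1 in BAS for PI against NP mice, 0 in HSD and 0 in BAS for G against NP mice, 1 in AVD and 0 in AVP for L against G mice, 3 for HSD against LP in PI mice, 2 for AVD against AVP in G mice and 1 in L mice, 3 for BAS against AVP in L mice and 2 for the HSD against LP interaction. Over all tested genes glmTreat called 231 of 10766, 127 of 10692, 121 of 11994 and 36 of 8511 in these PI against NP comparisons. In those of G against NP and L against G mice it called 464 of 10978, 611 of 11086, 342 of 11860 and 352 of 8446. Within mice it called 2263 of 11599, 323 of 11930, 154 of 6236 and 1754 of 12561, and 123 of 12160 for the interaction. DESeq2 called 4 in BAS for G against NP mice, 0 for AVD against AVP and 4 for BAS against AVP in L mice. Over all tested genes DESeq2 called 3098 of 11086, 183 of 6236 and 3133 of 12561 in that order. Without the filter 0 of the 9 were called in BAS for PI against NP mice and 2 for AVD against AVP in L mice. For the AVD against AVP interaction 1 was called without the filter and 2 under total UMI scaling. Over all tested genes these settings called 18 of 15804, 778 of 14512, 537 of 18185 and 2601 of 8843 in that order. The cause was not tested.

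The numbers called with 1 library left out, where the remaining library of the group is assumed to vary like the others, ranged from 5 to 6 in LP, 3 to 6 in HSP, 3 to 5 in HSD and 1 to 3 in BAS for PI against NP mice, 2 to 3 in HSD and 6 to 7 in BAS for G against NP mice, and 4 to 6 in BAS, 2 to 5 in AVD and 3 to 6 in AVP for L against G mice. The same held for the interactions (added after seeing the data). Leaving 1 library out of a within-mouse fit was not run, since no residual degrees of freedom remain. The replicate numbers did not pair the mice. A replicate block between stages kept 46 of 47 calls and ended that of Ndrg1 in HSD for G against NP mice (-0.73, adjusted p = 0.0571). Without the mouse term 49 of 55 within-mouse calls were kept, and the numbers were 2 for AVD against AVP and 5 for BAS against AVP in L mice under no replicate block. Over all tested genes 492 of 6236 and 5174 of 12561 were then called, in that order. Over all genes, counts ran from 342 to 7285 in the 20 comparisons, from 179 to 4709 with DESeq2, from 36 to 2263 with glmTreat and from 18 to 7827 without the filter. TMM stood off total UMI scaling by -0.25 for HSD in G against NP mice, -0.13 for HSD against LP in PI mice and BAS against LP in NP mice, 0.12 for AVD against AVP in G mice and 0.11 for BAS in L against G mice. Small sums set the depth limit, with 28 and 59 basal cells in PI mice and 20 and 41 HSD cells in G mice.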

Other observations

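Some sums that the text above pools or sets aside are given here as values. In the 22 luminal progenitor cells of PI mouse 1 that the authors placed in C6, the cluster made mostly of NP cells, and which entered the luminal progenitor class, Vegfa stood at 257 CPM (39 UMIs) and Egln3 at 33.0 CPM (5 UMIs), while Angptl4 stood at 65.9 CPM (10 UMIs). In C7, which holds the other luminal progenitors of PI mice, Angptl4 stood at 418 and 391 CPM. In C15 of L mice, the Procr-positive cells, Hif1a was 377 and 601 CPM and Vegfa 12.4 and 17.8 CPM. In fibroblast cluster C18, which the sort gate should have removed, Vegfa was 166 and 272 CPM in NP mice, 18.1 and 26.6 CPM in G mice and 33.1 and 47.7 CPM in L mice, and Ndrg1 was 412 and 322 CPM, 99.6 and 33.2 CPM, and 78.9 and 52.0 CPM. These values were not tested between stages.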
